A study of Mus musculus with 16 samples.

Results

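The MYC network genes Myc, Mycn, Max, Mxd1, Mxi1, Mxd3, Mxd4, Mnt, Mga and Mlx were followed across 16 RNA-seq libraries. The cells were mouse pre-B cells, B-lymphocyte precursors that the fusion kinase BCR-ABL1 can turn into acute lymphoblastic leukaemia. They were chosen by symbol, as 10 of the 23279 symbols in the table, and 10 of 10 passed the filter on low values. The values are FPKM, fragment numbers scaled to transcript length and to the size of the library. The libraries form 4 groups of 4, which cross BCR-ABL1 with SHP2, the Ptpn11-encoded phosphatase that links receptors to RAS and ERK.

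Control SHP2 wild-type cells carry the label BCR-ABL NULL (-/-) with SHP2 WT (+/+), and control SHP2-null cells the label BCR-ABL NULL (-/-) with SHP2 NULL (-/-). BCR-ABL1 SHP2 wild-type and BCR-ABL1 SHP2-null cells carry BCR-ABL WT (+/+) with the same pair of SHP2 genotypes, and the protocol calls them BCR-ABL1. Mouse strain and age, how BCR-ABL1 was introduced, how SHP2 was deleted and whether replicates 0 to 3 came from separate animals or cultures is stated in none of the sources used here. The p-values therefore measure the spread between these libraries, which may be technical.

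MYC is a transcription factor that binds E-box DNA only as a dimer with MAX and promotes ribosome production, metabolism and cell cycle entry. The MXD proteins (encoded by Mxd1, Mxi1, Mxd3 and Mxd4) and MNT compete for MAX and the same E-boxes, and recruit the SIN3 corepressor and histone deacetylases. MGA is a large MAX partner of a variant Polycomb complex, and MLX is a MAX relative that pairs with the glucose-responsive factors MondoA and ChREBP as well as with some MXD proteins and MNT. In B-cell development MYC and N-MYC serve the proliferation of pre-B cells, and Myc is a dependency of BCR-ABL1 leukaemia.

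The promoters of Mxd3 and Mxd4 are shown because these antagonists varied together across the libraries. Each window runs from 250 bases before to 50 bases after the annotated start (RefSeq, GRCm38.p6), 5′ to 3′ on the gene's strand. Capitals mark the E-box CACGTG. The Mxd3 window lies at chr13:55329682-55329981 on the minus strand, and the Mxd4 window at chr5:34187661-34187960 on the minus strand.
Mxd3: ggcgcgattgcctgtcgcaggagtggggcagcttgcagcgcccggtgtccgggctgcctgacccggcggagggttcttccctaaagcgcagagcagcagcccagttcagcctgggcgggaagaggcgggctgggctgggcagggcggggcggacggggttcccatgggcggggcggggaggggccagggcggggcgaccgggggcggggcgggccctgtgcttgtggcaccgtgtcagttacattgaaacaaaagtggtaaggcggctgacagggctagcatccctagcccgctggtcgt
Mxd4: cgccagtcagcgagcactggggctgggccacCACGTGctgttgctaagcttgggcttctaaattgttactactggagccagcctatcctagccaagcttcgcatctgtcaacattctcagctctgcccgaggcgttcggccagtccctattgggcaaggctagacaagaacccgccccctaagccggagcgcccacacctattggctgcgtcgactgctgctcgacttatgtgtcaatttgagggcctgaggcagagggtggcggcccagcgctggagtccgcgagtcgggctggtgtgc
The E-box stood once in the Mxd4 window, at position -219 relative to the start, and its letters were not in the Mxd3 window. RefSeq windows were matched for 9 of the 10 members, with 11 windows in all, and the member without one was Myc. The E-box was also in the windows of Max, Mnt and Mlx, so that 4 of the 9 members held it, against 2349 of 32851 promoter windows of the same length (7.15%). Searched on both strands, the E2F motifs TTTGGCGC or TTTCCCGC stood in the Mycn window (1.56% of all windows) and the FOXO motif TGTTTAC in 1 Mxi1 window (3.65%). No window held more than 1 of the 3 motifs. The motifs were chosen with the values known, and a match is a description of the letters only.

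Ptpn11 checked the SHP2 labels. It read 16.1 to 17.6 FPKM in control SHP2 wild-type and 2.87 to 7.43 FPKM in control SHP2-null libraries. With BCR-ABL1 it read 15.7 to 18 and 3.56 to 6.07 FPKM, with log2 changes on SHP2 loss of -1.73 ± 0.19 (SE, limma adjusted p = 0.000257) with and -1.45 ± 0.19 (limma adjusted p = 0.00108) without BCR-ABL1. The pre-B cell label held, since 12 of 12 pre-B markers averaged at least 1 FPKM and summed to 1991 to 2683 FPKM per library. Markers of 10 myeloid genes summed to 3.62 to 32.2 FPKM in every library outside the control SHP2-null group, where they reached 433 FPKM in replicate 2, mostly from Lyz2 (403 FPKM, at most 34.3 in any other library). The 8 T and NK cell markers summed to at most 3.93 FPKM, the 7 erythroid and megakaryocyte markers in the table to at most 3.67 FPKM and the 8 stromal markers to at most 14.9 FPKM, of which Pecam1 alone averaged at least 1 FPKM. The 6 mast cell markers summed to 7.31 to 12.7 FPKM in control SHP2 wild-type, 0.254 to 12.3 in control SHP2-null and at most 3.36 FPKM in cells with BCR-ABL1. Because these are bulk samples, fewer cells of a type and less RNA per cell cannot be told apart.

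Myc, the activator that gives the network its name, was among the more abundant transcripts, with a mean at the 83.9th percentile of the 10210 genes tested. It read 35.2, 48.6, 32.7 and 46.0 FPKM in control SHP2 wild-type replicates 0 to 3 and 41.1, 37.2, 28.1 and 29.2 FPKM in control SHP2-null replicates. It read 26.5, 46.9, 31.2 and 29.1 FPKM in BCR-ABL1 SHP2 wild-type and 29.0, 39.1, 23.1 and 27.5 FPKM in BCR-ABL1 SHP2-null libraries. The order of the means was control SHP2 wild-type (40.6 ± 7.80 FPKM, SD, n = 4), control SHP2-null (33.9 ± 6.28), BCR-ABL1 SHP2 wild-type (33.4 ± 9.18) and BCR-ABL1 SHP2-null (29.7 ± 6.74), and each neighbour in that order overlapped the next. No comparison tested here passed for Myc. It changed by -0.16 ± 0.19 with SHP2 loss in BCR-ABL1 cells and by -0.25 ± 0.19 in control cells, and by -0.29 ± 0.19 and -0.19 ± 0.19 with BCR-ABL1 in SHP2 wild-type and SHP2-null cells (log2(FPKM + 1) ± SE, limma adjusted p = 1.00, 0.550, 0.458 and 0.717). With an SE of 0.19 on that scale, changes of this size were not detectable at 4 libraries a group. Across libraries Myc correlated at 0.66, and within groups at 0.84, with a measure of GC bias in each library. The measure is the rank correlation, over genes, of GC content with the deviation of log2(FPKM + 1) from the gene's mean over the 16 libraries. That library measure ran from -0.467 to 0.469. Its part in the Myc values was not tested apart from the GC-corrected fits, in which Myc passed in no comparison.

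Mycn, which encodes N-MYC and is used by B-lineage precursors, stood at 19.1% to 38.2% of the summed Myc and Mycn FPKM. Its values were 16.9, 17.8, 12.3 and 11.4 FPKM in control SHP2 wild-type and 17.6, 20.3, 6.65 and 8.18 FPKM in control SHP2-null replicates 0 to 3. With BCR-ABL1 they were 15.7, 16.8, 13.3 and 11.1 FPKM in SHP2 wild-type and 15.2, 17.6, 14.3 and 14.2 FPKM in SHP2-null cells. The group ranges overlapped throughout. Control SHP2-null replicates 2 and 3 held the lowest values of the 16 libraries, and replicate 2 is the library with the high myeloid markers. Relative to its mean Mycn had the widest spread of any member in a group, 13.2 ± 6.80 FPKM in that group against 15.3 ± 1.59 FPKM in BCR-ABL1 SHP2-null cells. Its log2 change on SHP2 loss in control cells was -0.25 ± 0.27 (limma adjusted p = 0.688), and 0.01 without replicate 2 of the SHP2-null group. Replicate 1 was the highest for Mycn in 4 of 4 groups and for Myc in 3 of 4. The third family member, Mycl (listed as Mycl1 and not among the 10), read 0.0388 to 0.222 FPKM and did not reach the filter.

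Max, the obligate partner of MYC and of the MXD proteins, was the steadiest member, at 26.3 to 31.5 FPKM over the 16 libraries. It averaged 30.5 ± 0.575 FPKM in control SHP2 wild-type, 30.4 ± 0.823 in BCR-ABL1 SHP2 wild-type, 29.1 ± 2.12 in control SHP2-null and 28.3 ± 1.30 in BCR-ABL1 SHP2-null cells. Neighbours in this order overlapped, and the largest fitted change, on SHP2 loss with BCR-ABL1, was -0.10 ± 0.06 (limma adjusted p = 1.00). Max FPKM was 0.460 to 0.843 times the summed Myc and Mycn FPKM. Mlx, the MAX relative, ran from 12.8 to 16.8 FPKM and its groups overlapped in each comparison. Max and Mlx correlated at 0.65 over the libraries and 0.83 within groups, and both correlated with the mean of 17 proliferation genes (0.73 and 0.72). These points share libraries and scaling, and the coefficients describe only these data.

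Mga, which encodes the MAX partner of the variant Polycomb complex PRC1.6, was 17.0, 15.5, 18 and 16.9 FPKM in control SHP2 wild-type replicates and 15.1, 15.1, 14.1 and 15 FPKM in control SHP2-null replicates. The 4 null libraries all lay below the 4 wild-type libraries, as in 3.07% of all genes tested. The log2 change was -0.17 ± 0.07, which lay below 0.05 unadjusted but did not pass over all genes (limma adjusted p = 0.245). In BCR-ABL1 cells the groups overlapped, at 14.1 to 17.4 FPKM in SHP2-null and 14.7 to 17.0 FPKM in SHP2 wild-type libraries.

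**Figure D1:**
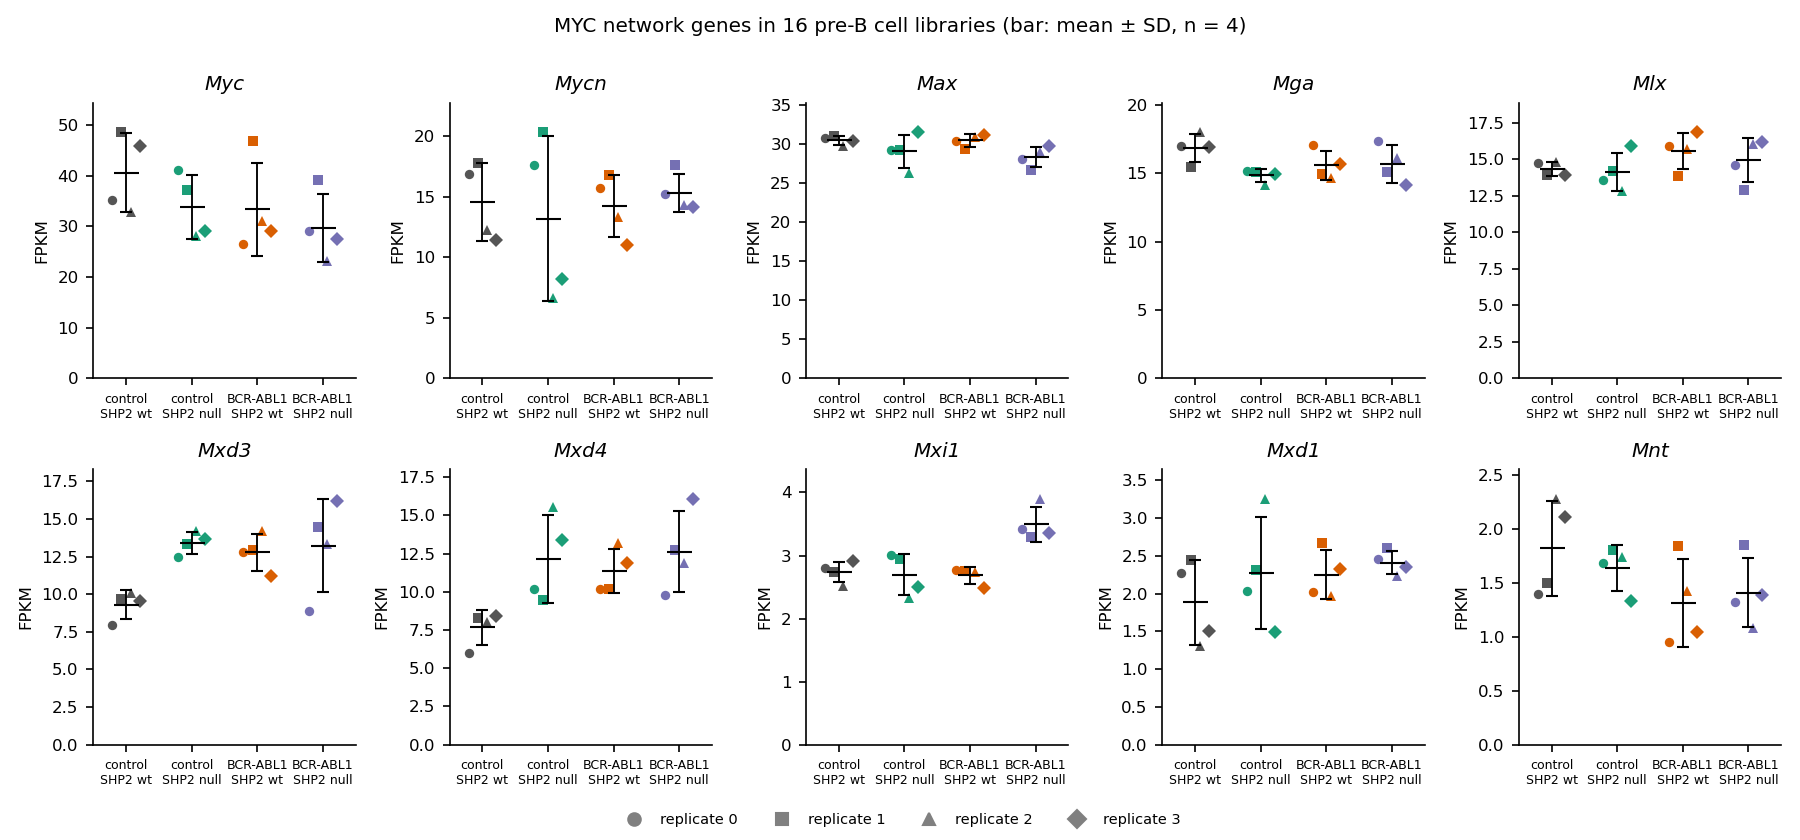
FPKM of the 10 network genes in each library (y axis), by group (x axis), with a symbol for each replicate number and bars for the mean ± SD of 4 libraries. Mxd3 and Mxd4 are lowest in control SHP2 wild-type cells (means of 9.31 and 7.67 FPKM), Mxi1 is highest in BCR-ABL1 SHP2-null cells (3.49 FPKM), and the Myc groups overlap.

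Mxd3 and Mxd4 were the abundant antagonists, and together made up 68.3% to 83.6% of the summed FPKM of the 5 antagonists. Both had their lowest mean in cells with neither BCR-ABL1 nor loss of SHP2, and a higher mean in the other 3 groups. The MXD3 protein is unusual among the family in being expressed in S phase of proliferating cells, whereas MXD4 belongs to cells leaving the cycle.

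Mxd3 (chromosome 13, 55325170 to 55329900, GRCm38.p6) read 7.94, 9.66, 10.1 and 9.54 FPKM in control SHP2 wild-type replicates 0 to 3 and 12.5, 13.4, 14.2 and 13.7 FPKM in control SHP2-null replicates. With BCR-ABL1 it read 12.8, 12.9, 14.2 and 11.2 FPKM in SHP2 wild-type and 8.91, 14.5, 13.4 and 16.2 FPKM in SHP2-null replicates. The control SHP2 wild-type libraries lay below all libraries of the other groups except replicate 0 of BCR-ABL1 SHP2-null cells. By means the order was control SHP2-null (13.4 ± 0.716 FPKM), BCR-ABL1 SHP2-null (13.2 ± 3.12), BCR-ABL1 SHP2 wild-type (12.8 ± 1.23) and control SHP2 wild-type (9.31 ± 0.945), and only the last neighbours did not overlap.

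Mxd4 (chromosome 5, 34176580 to 34187710, GRCm38.p6) lies 86.94 Mb from Ptpn11 on the same chromosome. It read 5.97, 8.26, 8.05 and 8.40 FPKM in control SHP2 wild-type and 10.2, 9.45, 15.6 and 13.4 FPKM in control SHP2-null replicates. With BCR-ABL1 it read 10.2, 10.2, 13.2 and 11.9 FPKM in SHP2 wild-type and 9.76, 12.7, 11.9 and 16.1 FPKM in SHP2-null replicates. The 4 control SHP2 wild-type libraries lay below all 12 others, as for 227 of 10210 genes (2.22%). By means the order was BCR-ABL1 SHP2-null (12.6 ± 2.63 FPKM), control SHP2-null (12.1 ± 2.86), BCR-ABL1 SHP2 wild-type (11.4 ± 1.47) and control SHP2 wild-type (7.67 ± 1.14), of which only the last neighbours were apart.

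**Figure D2:**
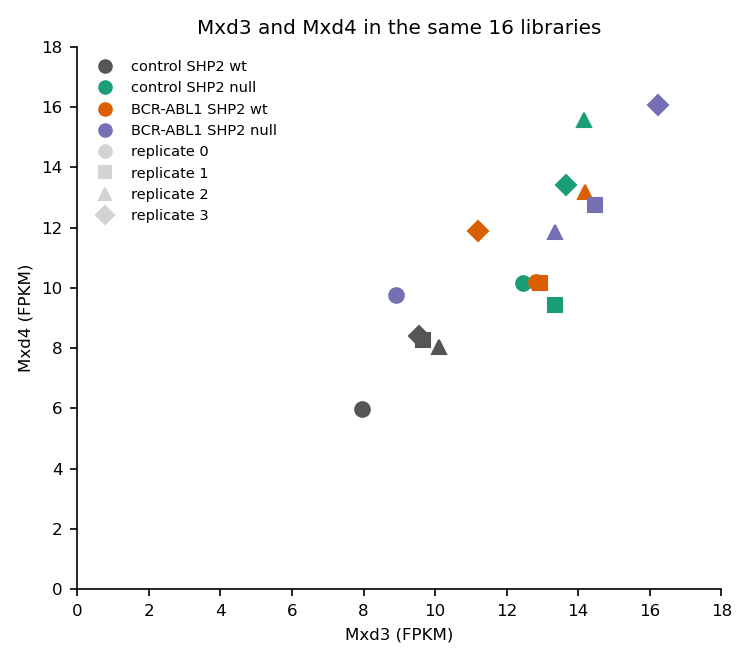
Mxd3 (x axis, FPKM) against Mxd4 (y axis, FPKM) in each of the 16 libraries, coloured by group with a symbol for each replicate number. The control SHP2 wild-type libraries occupy the lower left corner (at most 10.1 and 8.40 FPKM), and replicate 0 of BCR-ABL1 SHP2-null cells is the nearest other library (8.91 and 9.76 FPKM).

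Mxd3 and Mxd4 varied together from library to library, with Pearson r = 0.86 and Spearman rho = 0.84 over the 16 libraries and r = 0.69 within groups. Both ran opposite to Mga (r = -0.77 and -0.74, or -0.64 and -0.63 within groups). Mycn and Mxd4 also ran opposite to each other, at r = -0.47 over all libraries and -0.71 within groups. Among 45 pairs of members these are descriptions over libraries that share depth, GC bias and preparation, and Mga has the lowest GC content of the members (42.2%, against 57.0% for Mxd3 and 55.5% for Mxd4).

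The genes most like Mxd4 across the 16 libraries, by Pearson correlation of log2(FPKM + 1), were the class I histocompatibility genes H2-D1 (r = 0.98, rho = 0.96, 163 to 350 FPKM) and H2-K1 (r = 0.96, rho = 0.94, 164 to 416 FPKM), followed by Pbxip1 (r = 0.93). H2-D1 and H2-K1 are close relatives whose reads may be shared, so their values are uncertain. Those most like Mxd3 were Unc93b1, which encodes a carrier of endosomal Toll-like receptors (r = 0.90, rho = 0.95), Ndufaf3, for a respiratory complex I assembly factor (r = 0.90), and Wbp1 (r = 0.89). Those most like Myc were the metabolic coactivator gene Ppargc1b (r = 0.92), the fatty acid synthase gene Fasn (r = 0.90, 20.2 to 58.0 FPKM) and Usp36 (r = 0.89), which encodes a nucleolar deubiquitinase that acts on MYC in human cells.

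Loss of SHP2 in control cells gave the largest fitted changes of the antagonists. Mxd3 stood 0.49 ± 0.13 and Mxd4 0.59 ± 0.16 higher in SHP2-null cells (log2 ± SE), and neither passed over all genes (limma adjusted p = 0.0878 and 0.0890). In this comparison 0 of 10 members were called at adjusted p below 0.05, where 1.54% of all genes were. At an unadjusted p below 0.05 there were 3 members, against 16.1% of genes. The libraries of Mxd3 and Mxd4 did not overlap between the groups, a pattern seen in the same direction in 6.02% of genes. The mast cell markers were also lower in most SHP2-null than in SHP2 wild-type control libraries (means of 4.59 and 10.3 summed FPKM). The myeloid markers averaged 124 and 16.4 FPKM, with 433 FPKM in SHP2-null replicate 2, and without that library the SHP2-null libraries ran from 8.12 to 39.7 FPKM (mean 21.1), across the wild-type range. The part of these markers in the Mxd3 and Mxd4 values was not tested beyond leaving out libraries.

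Same-number libraries deviated together in this comparison. With the replicate number as a block over all 16 libraries, both genes passed (limma adjusted p = 0.0240 for Mxd3 and 0.00877 for Mxd4), in a fit that called 5.75% of all genes. With the block, leaving out each library in turn kept Mxd4 past the threshold each time (limma adjusted p = 0.00349 to 0.0365). Mxd3 lost it without control SHP2-null replicate 0 or 2 or control SHP2 wild-type replicate 0, 2 or 3 (limma adjusted p = 0.0317 to 0.0721 over the 8 libraries). Without SHP2-null replicate 2, the library with the high myeloid markers, and with no block, the changes were 0.46 and 0.47 (limma adjusted p = 0.204 and 0.240). With the block and without that library they were 0.49 and 0.49 (limma adjusted p = 0.0542 and 0.0274).

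Mxi1, Mxd1 and Mnt overlapped between the control groups. Mxi1 read 2.33 to 3 FPKM in SHP2-null and 2.52 to 2.91 FPKM in SHP2 wild-type libraries. Mxd1, the founding MXD gene, averaged 2.27 ± 0.740 and 1.88 ± 0.565 FPKM, with control SHP2-null replicate 2 the highest of all 16 libraries at 3.26 FPKM. Mnt averaged 1.64 ± 0.211 FPKM in SHP2-null and 1.82 ± 0.439 FPKM in SHP2 wild-type cells. Over the 10 members the median log2 change was -0.05, beside 0.02 for all genes tested.

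Loss of SHP2 in BCR-ABL1 cells gave Mxd3 and Mxd4 changes smaller than their errors, at 0.02 ± 0.13 and 0.13 ± 0.16 on the log2 scale (limma adjusted p = 1.00 for both). Mxi1, a MYC antagonist that in human cells is also a target of FOXO factors and of hypoxia signalling, was the member that differed most. It read 3.42, 3.29, 3.90 and 3.36 FPKM in BCR-ABL1 SHP2-null and 2.78, 2.75, 2.73 and 2.49 FPKM in BCR-ABL1 SHP2 wild-type replicates 0 to 3. All 4 null libraries lay above all 12 libraries of the other groups, as for 29 of 10210 genes (0.284%), since control SHP2 wild-type libraries reached 2.91 and control SHP2-null libraries 3 FPKM. The log2 change was 0.28 ± 0.07, which did not pass over all genes (limma adjusted p = 0.213, and 0.198 with the block). Of the 10 members 0 were called, against 0.313% of all genes (0 with the block, against 0.47%). At an unadjusted p below 0.05 stood 1 member, against 3.65% of genes, and Mxi1 was the only one whose groups did not overlap, against 1.42% of genes in that direction. The member median was 0.04, beside -0.02 for all genes.

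**Figure D3:**
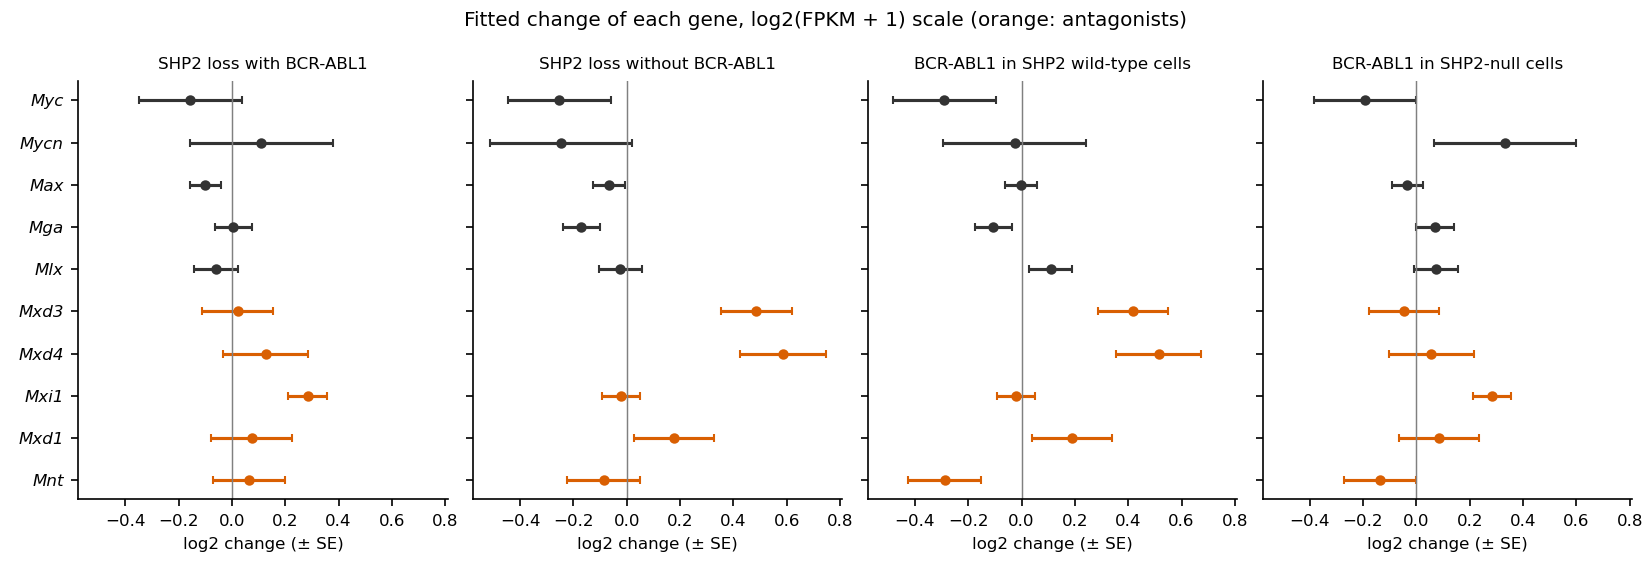
Fitted change of each member (x axis, log2 of FPKM + 1, points with SE bars) in the 4 pairwise comparisons, with antagonists in orange. Mxd3 and Mxd4 stand at 0.42 to 0.59 on SHP2 loss without BCR-ABL1 and for BCR-ABL1 in SHP2 wild-type cells, against -0.05 to 0.13 in the other comparisons, and Mxi1 stands at 0.28 in the comparisons that involve BCR-ABL1 SHP2-null cells as the higher group.

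The difference between the SHP2 effects with and without BCR-ABL1 was -0.46 ± 0.19 for Mxd3, -0.46 ± 0.23 for Mxd4 and 0.30 ± 0.10 for Mxi1 on the log2 scale. None of these passed over all genes (limma adjusted p = 0.839, 0.839 and 0.802, or 0.287 for each with the replicate block), so the SHP2 effects were not shown to differ. The interaction called 0 of 10210 genes (0%), with or without the block, while 591 (5.79%) and, among the members, Mxd3 and Mxi1 lay at an unadjusted limma p below 0.05.

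BCR-ABL1 in SHP2 wild-type cells went with higher fitted levels of Mxd3 and Mxd4. This comparison shares its control libraries with SHP2 loss in control cells, so the values of these genes in the pair of comparisons are not independent. The log2 changes were 0.42 ± 0.13 for Mxd3 and 0.51 ± 0.16 for Mxd4 (limma adjusted p = 0.0861 and 0.0811). The call was 0 of 10 members, beside 4.67% of all genes, and the groups of both genes were apart, beside 7.66% of genes apart in the same direction. The mast cell markers summed to 2.09 ± 1.09 FPKM with and 10.3 ± 2.69 FPKM without BCR-ABL1 here, and their part was not tested. With Mnt, Mxd3 and Mxd4 were the 3 members at an unadjusted p below 0.05, against 19.1% of genes. When the fit held only these 8 libraries, both passed (limma adjusted p = 0.0417 and 0.0477), in a fit that called 3.48% of all genes. With a correction for GC content Mxd3 passed (limma adjusted p = 0.0312) and Mxd4 did not (0.0653), where 7.41% of all genes were called.

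Mnt, the broadly expressed antagonist that is present in resting and cycling cells alike, had the opposite sign here. It read 0.953, 1.85, 1.42 and 1.04 FPKM with BCR-ABL1 and 1.40, 1.5, 2.28 and 2.11 FPKM without, and the groups overlapped. Its log2 change was -0.29 ± 0.14 (limma adjusted p = 0.262). Mnt is the member with the highest GC content (59.5%), and it correlated at 0.59 with the GC measure of the libraries. The part of GC content in this difference was not tested apart from the GC-corrected fit, in which no member other than Mxd3 passed. Mycn stood at -0.03 ± 0.27 and Mxd1 at 0.19 ± 0.15.

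BCR-ABL1 in SHP2-null cells left Mxd3 and Mxd4 with changes of -0.05 ± 0.13 and 0.06 ± 0.16 (limma adjusted p = 0.922 for both). Mxi1 stood 0.28 ± 0.07 higher with BCR-ABL1, in a comparison that shares its BCR-ABL1 SHP2-null libraries with SHP2 loss in BCR-ABL1 cells. Its groups did not overlap, as for 3.76% of genes in that direction. Summed myeloid and mast cell markers had lower means with BCR-ABL1 here (8.39 against 124 and 1.46 against 4.59 FPKM). Without control SHP2-null replicate 2 the means of the control SHP2-null libraries were 21.1 and 2.03 FPKM. The T and NK cell (1.57 against 1.28), erythroid and megakaryocyte (1.71 against 0.811) and stromal sums (13.8 against 10.8 FPKM) had higher means with BCR-ABL1. Of the 5 myeloid markers tested, 3 stood below 0 and 2 above it. Lyz2, the one with the smallest p, stood at -3.05 ± 0.91 on the log2 scale (limma adjusted p = 0.141, or 0.0122 with the block). S100a9 reached 3.44 FPKM with BCR-ABL1 and at most 0.345 FPKM without it. Mxi1 correlated at -0.60 within groups with the myeloid sum. Without control SHP2-null replicate 2, the high myeloid library, the Mxi1 change was 0.24 (limma adjusted p = 0.123, or 0.0704 with the block). Mxi1 did not pass over all genes (limma adjusted p = 0.0738) and passed with the replicate block (0.0398), where 5.27% of all genes were called against 1.26% without it. The block call was lost without any 1 of 7 of the 8 libraries, the exception being control SHP2-null replicate 1 (limma adjusted p = 0.0317 to 0.160), and also with the GC correction beside the block (0.0778). Mycn was at 0.33 ± 0.27 and Myc at -0.19 ± 0.19, and 0 of 10 members were called without the block. Mxi1 was also the 1 member at an unadjusted p below 0.05, against 13.5% of genes.

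The ratio of antagonist to MYC transcripts, the summed FPKM of Mxd1, Mxi1, Mxd3, Mxd4 and Mnt over that of Myc and Mycn, was lowest in control SHP2 wild-type cells. It was 0.391, 0.371, 0.539 and 0.426 in replicates 0 to 3 of that group, and 0.5, 0.519, 1.07 and 0.867 in control SHP2-null replicates. With BCR-ABL1 it was 0.680, 0.477, 0.753 and 0.722 in SHP2 wild-type and 0.585, 0.617, 0.867 and 0.945 in SHP2-null replicates. Of the 6 pairs of groups 5 overlapped, and control SHP2 wild-type libraries lay below all BCR-ABL1 SHP2-null libraries, a pair that differs in both factors. Only in control SHP2-null replicate 2 did antagonist FPKM exceed that of Myc and Mycn.

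The mean ratio was 0.432 ± 0.0750 in control SHP2 wild-type, 0.738 ± 0.277 in control SHP2-null, 0.658 ± 0.124 in BCR-ABL1 SHP2 wild-type and 0.753 ± 0.180 in BCR-ABL1 SHP2-null cells (SD, n = 4). On the log2 scale the mean differed by 0.71 on SHP2 loss in control cells and by 0.60 on BCR-ABL1 in SHP2 wild-type cells. It differed by 0.19 on SHP2 loss in BCR-ABL1 cells and by 0.07 on BCR-ABL1 in SHP2-null cells. Leaving out 1 library moved the 0.19 to between 0.04 (without BCR-ABL1 SHP2 wild-type replicate 1) and 0.30 (without BCR-ABL1 SHP2-null replicate 0). It moved the 0.07 to between -0.09 and 0.28 (without control SHP2-null replicate 0 and replicate 2 respectively), so its sign depended on single libraries. No p is given for this ratio, because it is a score over chosen genes.

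Control SHP2 wild-type cells stood apart in the numerator of the ratio and overlapped in its denominator. Mxd3 and Mxd4 made up 68.3% to 83.6% of that numerator, so it largely repeats their values. In this group Mxd4 by itself lay below all 12 other libraries, a pattern seen in 2.22% of genes. The summed antagonists were 20.4 to 24.6 FPKM in control SHP2 wild-type libraries, below all 12 others, at 29.4 to 37.1 FPKM in control SHP2-null, 28.8 to 33.5 in BCR-ABL1 SHP2 wild-type and 25.9 to 39.4 FPKM in BCR-ABL1 SHP2-null libraries. Summed Myc and Mycn ran from 45 to 66.4 FPKM in control SHP2 wild-type, 34.8 to 58.7 in control SHP2-null, 40.1 to 63.7 in BCR-ABL1 SHP2 wild-type and 37.4 to 56.7 FPKM in BCR-ABL1 SHP2-null libraries, and overlapped between all groups. Transcript ratios do not measure protein, and MYC and MXD proteins are short-lived.

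**Figure D4:**
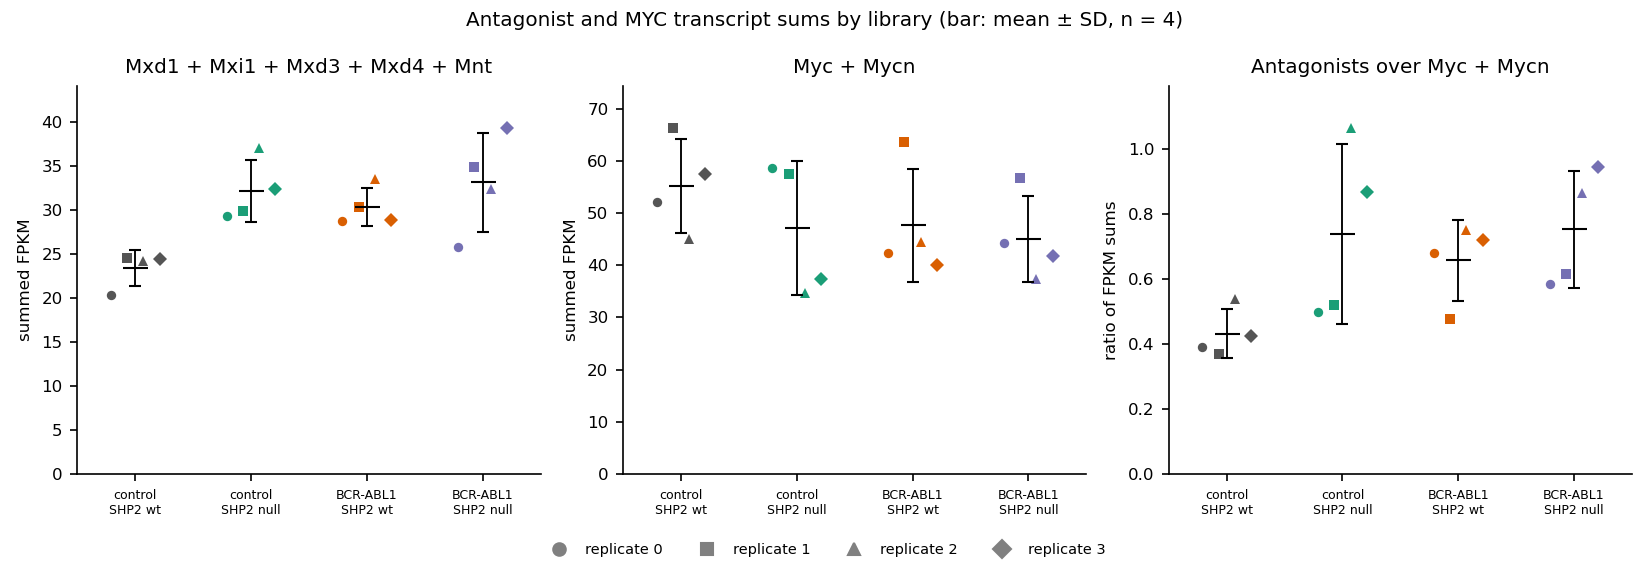
Summed antagonist FPKM (left), summed Myc and Mycn FPKM (middle) and their ratio (right) on the y axes for each library by group, with bars for the mean ± SD of 4 libraries. The antagonist sum of control SHP2 wild-type libraries (20.4 to 24.6 FPKM) lies below that of all 12 others, while their ratios (0.371 to 0.539) lie below those of BCR-ABL1 SHP2-null libraries and overlap those of the other groups. Mxd3 and Mxd4 make up 68.3% to 83.6% of the antagonist sum.

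Genes downstream of the network were read from lists of known targets. Of 32 genes that MYC is known to activate, such as those for ribosome biogenesis, nucleotide synthesis and glycolysis, 0 were called in any comparison. On SHP2 loss 28 of 32 stood below 0 in BCR-ABL1 cells (median log2 change -0.14, beside -0.02 for all genes) and 29 of 32 in control cells (median -0.14, beside 0.02). In BCR-ABL1 cells 16 of 17 proliferation genes and 10 of 10 genes of the MGA complex also stood below 0 on SHP2 loss (6 of 17 and 6 of 10 in control cells). Such counts are a description, since members of 1 pathway vary together, and a like pattern for MYC targets in these libraries was known when the list was made. Quantile normalization gave 27 of 32 and a median of -0.07 in BCR-ABL1 cells. Without control SHP2-null replicate 2 the count in control cells was 23 of 32 and the median -0.06. With BCR-ABL1, 22 of 32 stood below 0 in SHP2 wild-type cells (27 under either other scaling) and 21 of 32 in SHP2-null cells (16 under quantile normalization, 26 with GC correction). Leaving out 1 library gave 18 to 24 of 32 in SHP2 wild-type cells, with medians from -0.10 to -0.02. In SHP2-null cells it gave from 15 of 32 (median 0.00, without control SHP2-null replicate 3) to 28 of 32 (median -0.12, without control SHP2-null replicate 2).

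Hk2, which encodes a hexokinase, had the smallest p of that list on SHP2 loss in control cells, at 7.91 ± 0.724 FPKM in those lacking SHP2 and 11.2 ± 1.76 FPKM in the others (log2 change -0.45 ± 0.12, limma adjusted p = 0.0770, and 0.0413 in the fit with the block). Shmt1, for a serine hydroxymethyltransferase, had the smallest p in BCR-ABL1 cells, at 37.3 ± 1.92 and 44.7 ± 2.49 FPKM (-0.25 ± 0.09, limma adjusted p = 1.00). Bop1, for a ribosome assembly factor, had it for BCR-ABL1 in SHP2-null cells (-0.35 ± 0.12, limma adjusted p = 0.192, or 0.0393 with the block).

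Of 7 genes that MYC is known to repress, 6 were tested, and on SHP2 loss 6 of 6 stood above 0 both with (median 0.20) and without BCR-ABL1 (median 0.33). None of them was called there, and the one with the smallest p in each, Cdkn2b (an inhibitor of CDK4 and CDK6), stood at 2.06 ± 0.527 FPKM in control SHP2-null and 1.41 ± 0.106 FPKM in control SHP2 wild-type cells (limma adjusted p = 0.139). With BCR-ABL1 in SHP2 wild-type cells 2 of the 6 were called higher, beside 2.95% of all genes. The antiproliferative gene Btg2 rose from 8.11 ± 1.77 to 14.1 ± 3.04 FPKM, a log2 change of 0.72 ± 0.18 (limma adjusted p = 0.0323), and its groups did not overlap. Cdkn1b, which encodes the cyclin-dependent kinase inhibitor p27, rose from 10.1 ± 0.388 to 12.3 ± 0.643 FPKM, a log2 change of 0.26 ± 0.07 (limma adjusted p = 0.0412). Leaving out 1 library lost the Btg2 call for 5 of 8 libraries (limma adjusted p up to 0.120) and the Cdkn1b call for 8 of 8 (0.0548 to 0.136), and both calls were lost with median-ratio scaling (0.0550 and 0.1) and quantile normalization (0.0557 and 0.0775). In SHP2-null cells Cdkn1b was at 14.0 ± 1.01 FPKM with and 11.6 ± 1.02 FPKM without BCR-ABL1 (limma adjusted p = 0.0998, or 0.0455 with the block).

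**Figure D5:**
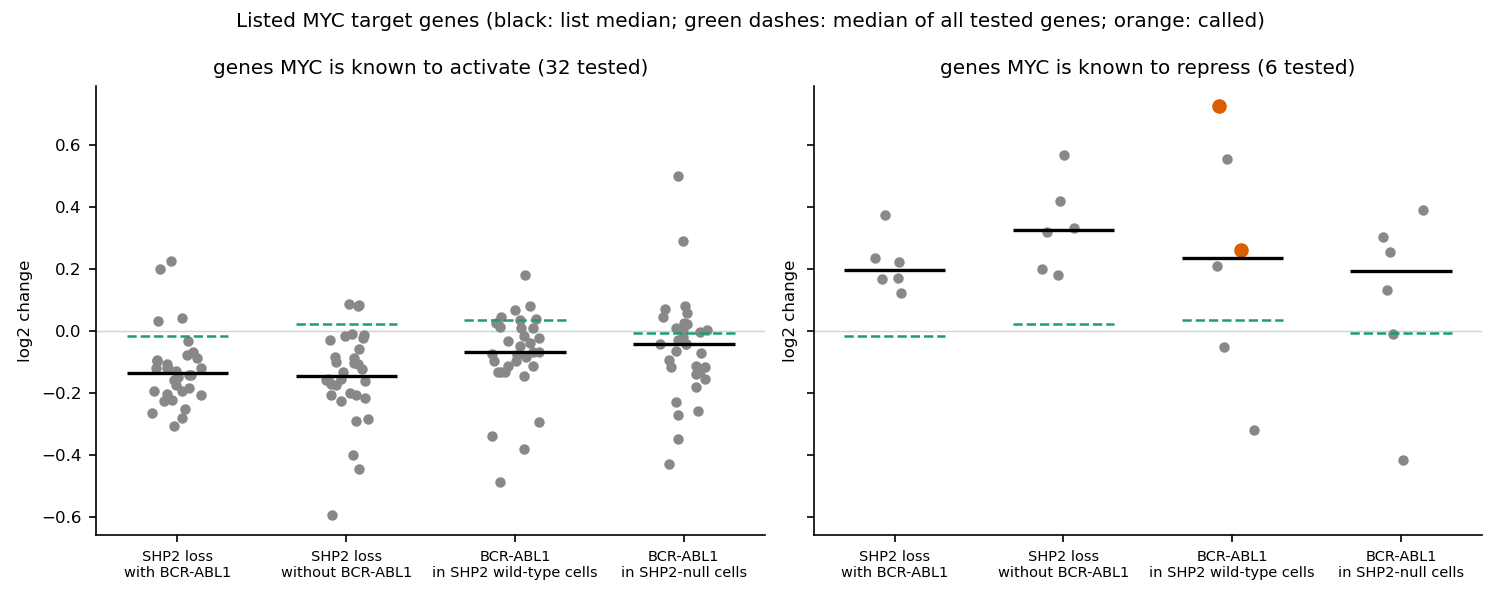
Log2 change (y axis, log2 of FPKM + 1) of each listed MYC target in 4 comparisons (x axis), for 32 activated (left) and 6 repressed genes (right). Gray dots are genes, orange dots called genes, black lines list medians and green dashes the median of all genes tested, and on SHP2 loss the list medians lie at -0.14 (activated) and at 0.20 and 0.33 (repressed).

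Partners and effectors of the members gave few calls. Txnip, the glucose-responsive target of MLX with MondoA, rose with BCR-ABL1 in SHP2-null cells from 20.5 ± 2.43 to 36.1 ± 9.06 FPKM, a log2 change of 0.77 ± 0.17 (limma adjusted p = 0.0345). That call was lost without control SHP2-null replicate 0, 2 or 3 or BCR-ABL1 SHP2-null replicate 2 or 3 (limma adjusted p up to 0.116). Mlxip, which encodes MondoA, averaged 6.18 ± 1.62 FPKM with and 7.91 ± 1.28 FPKM without BCR-ABL1 in SHP2 wild-type cells (limma adjusted p = 0.344).

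The 14 genes of the SIN3 corepressor that MXD and MNT recruit gave 0 calls in any comparison, with medians from -0.03 to 0.06. Sap30, a SIN3 subunit gene, was at 23.0 ± 3.72 FPKM with and 18.3 ± 2.67 FPKM without BCR-ABL1 in SHP2-null cells and passed only with the block (limma adjusted p = 0.336, or 0.0411). The 10 genes of the MGA complex gave 0 calls. Its Polycomb subunit gene Pcgf6 stood at 8.77 ± 0.240 FPKM in control SHP2-null and 11 ± 1.02 FPKM in control SHP2 wild-type cells, with no overlap between the groups, and passed with the block (limma adjusted p = 0.0665, or 0.0224).

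The 16 genes of MYC coactivators and partners also gave 0 calls in any comparison. Below 0 stood 11 of the 16 on SHP2 loss with BCR-ABL1, 10 on SHP2 loss without it, 10 for BCR-ABL1 where SHP2 was intact and 15 for BCR-ABL1 where it was lost. The median in the last was -0.15, beside -0.01 for all genes, and leaving out 1 library gave 14 to 16 genes and medians from -0.21 to -0.08, the smallest without control SHP2-null replicate 0. In that comparison the acetyltransferase gene Kat2a was at 11.4 ± 1.05 FPKM with and 14.1 ± 0.763 FPKM without it (limma adjusted p = 0.151, or 0.0216 with the block). Of 14 genes for the turnover of MYC protein, 0 were called, with medians from -0.05 to 0.00. The 17 proliferation genes gave 0 calls as well, with medians of -0.09 and 0.04 on SHP2 loss with and without BCR-ABL1, and 0.09 and -0.05 with BCR-ABL1 in SHP2 wild-type and SHP2-null cells.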

How the data were processed

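PolyA RNA (150 ng per sample, stranded kit, 100 cycles from each end) was sequenced, per the labels' protocols. The authors deposited FPKM values, 1 column per library, with genes by symbol. The submitters' processing notes name Bowtie, Cufflinks and the build mm10 (GRCm38); no source used here states versions, annotation or strand settings. Values of 254 symbols listed more than once were summed, and 16 of 16 library files matched the series table. FPKM hold no counts, so depth is unknown; relative depth, from low genes, spanned a ratio of 1.59, and whole reads could not be recovered.

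The 10210 genes that reached 1 FPKM in 4 or more libraries were fitted as log2(FPKM + 1), which understates changes of low genes, in 1 limma fit (trended prior, 4 group means, no block) with two-sided tests and Benjamini-Hochberg adjustment over all genes. An adjusted p below 0.05 is a call. The ratio, correlations and lists carry no test. The fit was tested on simulated data. Alternatives were pseudocount, filters, scaling, GC correction, replicate block, the groups in the fit, repeated symbols and leaving out each library; leaving out libraries beside the block was added after seeing the data.

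Members, lists and tests were chosen with earlier results of these data known. All members and Ptpn11 are named, and from each list up to 4 called genes or, with none, the one with the smallest p, some left out for length; for Myc, Mxd3 and Mxd4 the 3 most correlated genes are named.

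Deviations from group means correlated between same-number libraries at 0.218 to 0.783 (SHP2 loss with BCR-ABL1), 0.189 to 0.51 (without) and 0.242 to 0.68 (BCR-ABL1 in SHP2-null cells), over 0.1 in every pair, so the numbers were taken to pair libraries there. The block was a single effect per number over all 16 libraries. Each block fit therefore also paired control with BCR-ABL1 SHP2 wild-type libraries, where 1 pair correlated at only 0.0549. The protocol loads libraries in sets with 1 of each group but does not tie the number to a set. Fits ran in limma 3.58.1 under R 4.3.3; other values came from Python 3.11.15 with pandas 2.3.3, numpy 2.4.6 and matplotlib 3.10.9.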

Additional observations from a re-analysis of the deposited data

Results flagged for a closer look

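Of 44 gene and group sets of 4 libraries examined, 3 held a library far from the rest of its group, by a criterion that chance meets in about 1 in 20 sets. Mxd4 in control SHP2 wild-type replicate 0 was 5.97 FPKM, against 8.05 to 8.40 FPKM in the other replicates. With no block, Mxd4 passed neither with nor without that library. Its limma adjusted p was 0.0890 and 0.177 on SHP2 loss in control cells, and 0.0811 and 0.170 on BCR-ABL1 in SHP2 wild-type cells. Without that library and with the replicate number as a block, the limma adjusted p was 0.0284 and 0.0308 in these comparisons. Mxi1 in BCR-ABL1 SHP2 wild-type replicate 3 was 2.49 FPKM, against 2.73 to 2.78 FPKM. Mga in control SHP2-null replicate 2, the library with high Lyz2, was 14.1 FPKM, against 15 to 15.1 FPKM.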

How the results depend on the processing

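With the replicate block, 2 members were called on SHP2 loss without BCR-ABL1, beside 5.75% of all genes (2 with GC correction too, beside 7.27%), and 1 for BCR-ABL1 in SHP2-null cells, beside 5.27%. For BCR-ABL1 in SHP2 wild-type cells 2 were called with the block, beside 12.1% (2 with GC correction too, beside 17%), 1 with GC correction alone, beside 7.41%, and 2 with only the groups compared, beside 3.48%. For BCR-ABL1 in SHP2 wild-type cells same-number libraries correlated at 0.0549 to 0.643, with 3 of 4 pairs at 0.338 or above and 1 below the 0.1 required, so the numbers were not taken as pairs there, although they were in the other comparisons of the same libraries; with the block Mxd3 and Mxd4 had limma adjusted p = 0.0278 and 0.00954, in a fit with 1231 calls over all genes (0.0108 and 0.00449 with GC correction), and leaving out 1 library lost Mxd3 for 6 of 8 libraries (0.0136 to 0.112) and kept Mxd4 (0.0075 to 0.0458). Leaving out 1 library, with or without the block, 0 to 2 members were called on SHP2 loss without BCR-ABL1, beside 0.784% to 8.16% of all genes. For BCR-ABL1, 0 to 3 were called in SHP2 wild-type cells, beside 2.3% to 13% of all genes. In SHP2-null cells 0 to 1 were called, beside 0.48% to 7.61%. Called genes in the lists numbered 3, and 1 with no filter, 1 at a mean of at least 5 FPKM, 15 with the block, 19 with the block and GC correction, and 0 with only the groups compared. For BCR-ABL1 in SHP2 wild-type cells, where 2 of the 3 were called, the share of all genes was 4.67%. In those settings, in the same order, it was 3.12%, 2.6%, 12.1%, 17% and 3.48%.

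Signs that turned were those of small changes. With GC correction, with or without the block, Mga was -0.0041 on SHP2 loss with and Mxi1 0.018 without BCR-ABL1, and Mxd3 was 0.055, Mnt 0.011 and Mga -0.0044 for BCR-ABL1 in SHP2-null cells. In the interaction Max was 0.0015 with median-ratio scaling and 0.036 with quantile normalization, and Mlx 0.014. Leaving out 1 library, log2 changes on SHP2 loss with BCR-ABL1 ran from -0.292 to 0.0146 for Myc, -0.0918 to 0.186 for Mxd3, -0.0185 to 0.173 for Mnt, -0.0432 to 0.0532 for Mga and -0.111 to 0.00405 for Mlx. Without BCR-ABL1 they ran from -0.488 to 0.00519 for Mycn, -0.0606 to 0.0339 for Mxi1, -0.0140 to 0.2999 for Mxd1, -0.214 to 0.00228 for Mnt and -0.0800 to 0.0352 for Mlx. In the interaction they ran from -0.0396 to 0.267 for Myc, -0.226 to 0.0879 for Mxd1, -0.0800 to 0.00537 for Max and -0.0945 to 0.0281 for Mlx. For BCR-ABL1 they ran from -0.126 to 0.0815 for Mycn, -0.0499 to 0.0221 for Mxi1 and -0.0264 to 0.0214 for Max in SHP2 wild-type cells, and from -0.160 to 0.119 for Mxd3, -0.0603 to 0.175 for Mxd4, -0.0372 to 0.277 for Mxd1 and -0.0811 to 0.00427 for Max in SHP2-null cells. The cause was not tested.

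The 56 alternatives of the ratio moved it by less than 1 SD (0.27 to 0.46 on the log2 scale), but many of them could not do otherwise. Leaving out 1 of 4 libraries cannot move a group difference by 1 such SD, and the replicate block leaves it unchanged by arithmetic. That SD also exceeds the differences of 0.19 and 0.07, and the latter changed sign on leaving out 1 library (-0.0873 to 0.277). Calls over all genes are given here for the fits other than those leaving out libraries beside the block. They ranged from 11 to 56 (32 as reported) on SHP2 loss with BCR-ABL1 and from 34 to 742 (157) without it. For the interaction they ranged from 0 to 3 (0). For BCR-ABL1 they ranged from 186 to 1737 (477) in SHP2 wild-type and from 30 to 538 (129) in SHP2-null cells. Some fits beside the block went past these ranges. Without control SHP2-null replicate 1 the block fit called 833 genes on SHP2 loss without BCR-ABL1. It called 8 in the interaction and 777 for BCR-ABL1 in SHP2-null cells. Median-ratio scaling turned 301 higher and 176 lower calls for BCR-ABL1 in SHP2 wild-type cells into 235 and 212, and quantile normalization into 227 and 200; on SHP2 loss without BCR-ABL1 the latter turned 104 and 53 into 86 and 74. Limits are the unknown depth, 4 libraries a group and a GC bias that varies between libraries.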
